A study of Mus musculus with 22 samples.

Results

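The 10 genes described here carry and control iron in the mouse liver. They are Hamp and Hamp2 (the hepcidin genes), Bmp6 and Tfr2 (upstream signals that set hepcidin), Id1 (a target of the same BMP signal), Trf and Tfrc (iron delivery and uptake), Slc40a1 (iron export), and Fth1 and Ftl1 (iron storage). They were chosen by name from the 55573 genes of the count table, and all 10 were among the 14062 genes with a mean of at least 10 reads per library, which were the genes tested.

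Hepcidin is a peptide hormone made by hepatocytes that binds ferroportin, the iron exporter encoded by Slc40a1, and sends it for degradation, so that iron is held inside cells. Its gene is switched on mainly by BMP6 from liver endothelial cells acting through SMAD proteins, and also by interleukin 6 acting through STAT3. Ferritin, ferroportin and the transferrin receptor are set in addition by iron regulatory proteins, which bind short hairpins, the iron responsive elements, in their messenger RNAs.

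RNA was sequenced from whole livers of 22 C57BL/6 mice, with 1 library per mouse, at 3 months of age. Control mice (Cre) were Flcn WT/WT and carried Albumin-Cre, and knockout mice (FLCN KO) were Flcn f/f with Albumin-Cre, which removes exon 7 of Flcn in hepatocytes, so that all mice carried the Cre transgene. Liver cells of the knockouts in which Albumin-Cre was not active kept the gene. FLCN (folliculin) restrains the transcription factors TFEB and TFE3. From 6 weeks of age the mice ate chow or a methionine and choline deficient (MCD) diet, which produces fatty, inflamed liver, for 6 weeks. The diets came from different makers, and the iron content of neither is given in the sources used here. There were 6 Cre chow, 5 FLCN KO chow, 5 Cre MCD and 6 FLCN KO MCD livers, and the libraries held 13751347 to 21144388 counted reads.

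Flcn itself ran from 26.1 to 40.2 CPM (read counts relative to the TMM-scaled library total) in Cre chow and from 16.7 to 24.2 CPM in FLCN KO chow livers. On MCD it ran from 18.2 to 39.9 CPM in Cre and from 17.6 to 32.6 CPM in FLCN KO livers. It was 1.55-fold lower in the knockout on chow (log2 fold change -0.63, SE 0.173, adjusted p = 0.025) and did not pass the test on MCD (-0.16, SE 0.170, adjusted p = 0.57). Reads from the exons that remain, and from cells without Cre, count toward these values, so they are a weak check on the deletion. Here and throughout, fold changes are on the log2 scale with their standard error, and adjusted p-values come from edgeR (quasi-likelihood fit, corrected by Benjamini-Hochberg across the 14062 genes), with calls made under 0.05.

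Some libraries stood apart. The labels used here give no sex, but Xist and 4 Y-linked genes divided the livers into 12 female and 10 male, with 3 female livers in each group, 3 males in Cre chow and FLCN KO MCD, and 2 males in the other groups. In 5 libraries read as female (Cre chow 2, Cre MCD 1, FLCN KO chow 2 and 4, and FLCN KO MCD 3) the summed Y-linked level was 5.27% to 17.9% of the male median, so these hold reads of both sexes. Cre MCD 3 held 3151 CPM of 10 skeletal muscle markers, followed by Cre MCD 4 with 153 CPM and FLCN KO MCD 3 with 69.6 CPM, while no Cre chow liver exceeded 6.36 CPM. Calls of the 10 genes that were lost without Cre MCD 3, or without the 5 libraries holding reads of both sexes, are given with those values. For the other iron genes such losses are given as counts only.

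The promoters of the hepcidin pair are shown because the genes sit side by side on chromosome 7, are nearly identical in sequence and behaved differently in these livers. Each line gives the 150 bases before the RefSeq transcription start, 5′ to 3′ on the minus strand (build GRCm38.p6). Capitals mark matches to GGCGCC, the BMP response element, and to TTCNNNGAA, the STAT site. The Hamp2 stretch lies inside the span that GENCODE, used for gene positions, gives this gene (chr7:30922372-30924681), so the annotations differ in its start.
Hamp (chr7:30944030-30944179): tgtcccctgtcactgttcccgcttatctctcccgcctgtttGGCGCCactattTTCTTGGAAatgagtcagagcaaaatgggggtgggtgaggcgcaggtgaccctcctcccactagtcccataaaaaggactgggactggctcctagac
Hamp2 (chr7:30924182-30924331): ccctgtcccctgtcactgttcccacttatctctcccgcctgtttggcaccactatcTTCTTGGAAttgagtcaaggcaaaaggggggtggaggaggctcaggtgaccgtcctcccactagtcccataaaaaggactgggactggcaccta
Set against each other with a shift of 3 bases, 135 of 147 bases were identical (91.8%). Among the 12 differences, G45A, counted from 1 at the 5′ end of the Hamp stretch, lies in the BMP response element, so that Hamp2 reads GGCACC there. No difference fell in the STAT site. Of 32851 RefSeq promoter windows of 300 bases, searched on both strands, 11.9% held GGCGCC and 8.3% held TTCNNNGAA, and the matches in these genes do not overlap each other.

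Of the other members, 5 had promoter windows in the same source. A window of Tfrc held GGCGCC, beginning 89 bases before the start. The window of Bmp6 held CACGTG, the E-box core bound by TFEB and TFE3, beginning 127 bases before the start, and TGANNNNGC, the antioxidant response element, at 2 places. These letters occur in 7.15% and 41.3% of all windows. None of the 4 motifs was found in the windows of Tfr2, Fth1 and Ftl1, and Trf, Slc40a1 and Id1 were not searched. A match is a description of the letters only.

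The iron responsive elements are shown because they tie storage, export and uptake to a shared control. The pattern searched in the transcripts was a C, any 5 bases, CAGTG and any base, with 5 of 5 base pairs in the stem around the loop. It was met in 271 of 21877 protein-coding genes (1.24%), and among the 10 members in Fth1, Ftl1, Slc40a1 and Tfrc. Capitals mark the loop in the sequences, which run 5′ to 3′ on the strand of the gene (GRCm38).
Fth1, 5′ UTR (chr19:9982732-9982760, plus strand): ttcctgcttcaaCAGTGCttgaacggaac
Ftl1, 5′ UTR (chr7:45459779-45459807, minus strand): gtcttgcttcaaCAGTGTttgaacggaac
Slc40a1, 5′ UTR (chr1:45925465-45925493, minus strand): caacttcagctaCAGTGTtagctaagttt
Tfrc, 3′ UTR, first (chr16:32631219-32631247, plus strand): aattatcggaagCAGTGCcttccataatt
Tfrc, 3′ UTR, last (chr16:32631710-32631738, plus strand): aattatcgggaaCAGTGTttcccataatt
Ferritin and ferroportin hold 1 such element each, ahead of the coding sequence, where a bound protein blocks translation. Tfrc holds 4, of which the first and the last are shown, all in exon 19 behind the coding sequence, where a bound protein protects the message from decay.

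Both over all genes and among the iron genes, more were called between diets than between genotypes. In Cre livers 7 of the 10 members passed the test between diets, where Id1, Fth1 and Ftl1 rose and Hamp2, Tfr2, Hamp and Trf fell. That is to be read against 57.5% of all tested genes called in this comparison (29.3% upward and 28.2% downward). In FLCN KO livers 5 members passed, with Fth1 and Slc40a1 higher and Tfr2, Hamp and Trf lower, beside 45.0% of all genes (22.5% upward and 22.5% downward). Between genotypes no member passed on chow, beside 8.62% of all genes (5.52% upward and 3.10% downward). By edgeR 3 of the 10 (Tfr2, Bmp6 and Ftl1) had an unadjusted p under 0.05, and DESeq2 called 1, Tfr2. The shares of all genes at that cutoff and by DESeq2 are not given here, so no excess among the members can be read from these counts. On MCD, Slc40a1, Bmp6 and Fth1 were higher in FLCN KO livers and none was lower, beside 16.6% of all genes (8.06% upward and 8.53% downward). The response to diet differed between the genotypes for 1 member, Slc40a1, beside 8.83% of all genes (3.29% upward and 5.54% downward). The median log2 fold change of the members was -0.23, 0.18, 0.06 and 0.14 in the 4 comparisons in this order, and that of all genes tested 0.01, 0.00, -0.03 and -0.01. The comparisons share their control livers, so their calls are not independent of each other. In the same order, the main fit called 8089, 6328, 1212 and 2333 of all genes. Without Cre MCD 3 the members called were 5, 6, 0 and 3, beside 8165, 6591, 1428 and 2367 of all genes. Without the 5 libraries holding reads of both sexes they were 3, 4, 0 and 2, beside 7030, 4236, 463 and 1194 of all genes.

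**Figure D1:**
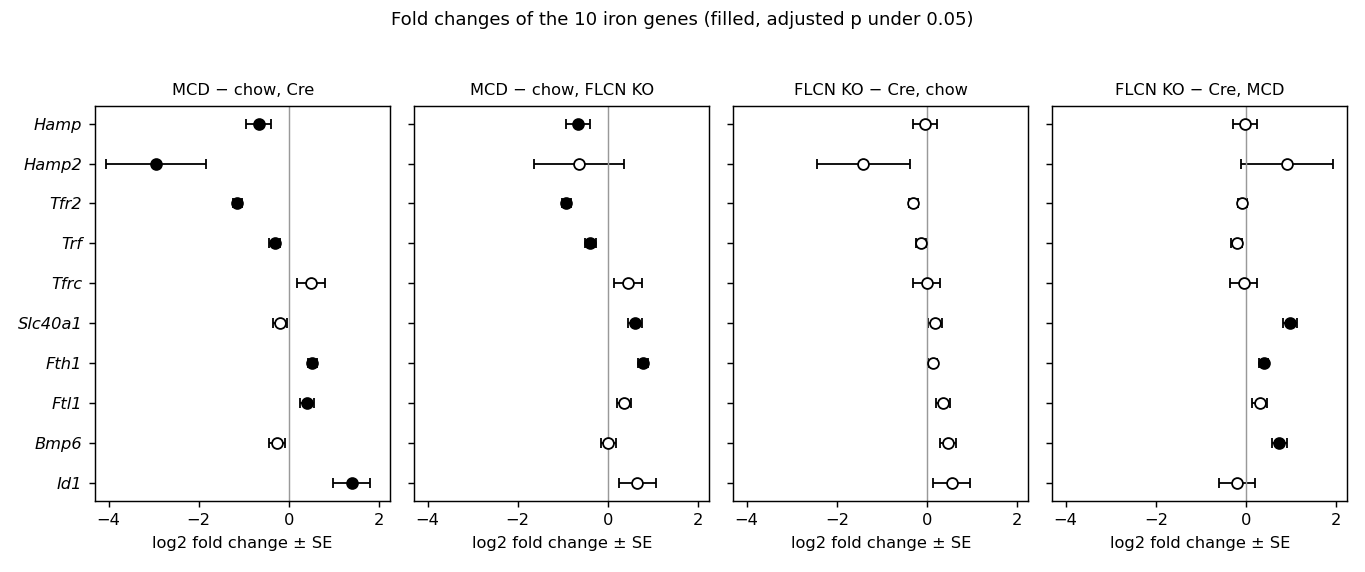
Log2 fold change with its standard error for the 10 iron genes in 4 comparisons (MCD against chow in each genotype, FLCN KO against Cre on each diet), with filled points for adjusted p under 0.05 (edgeR). Tfr2 lies at -1.14 and -0.92 in the diet comparisons, and Slc40a1 at 0.98 between genotypes on MCD.

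Per kilobase of exon, which allows levels to be set side by side between genes, Hamp was the most abundant member in Cre chow livers at 2315 ± 652 CPM per kb (SD, n = 6). Ftl1 followed at 1399.7 ± 199, then Trf at 730.2 ± 79.7 and Fth1 at 525 ± 10.1 CPM per kb. Tfr2 came next at 85.9 CPM per kb, then Slc40a1 at 19.7, Id1 at 12.0, Tfrc at 3.12 and Bmp6 at 1.15. The livers overlapped between Hamp and Ftl1, between Slc40a1 and Id1 and between Id1 and Tfrc, so the order of these neighbours is not set beyond their spread. The exon lengths join all transcripts of a gene. For Fth1 and Trf they were 3469 and 3320 bases, while the transcripts searched above had 1494 and 2571 bases. The order of Trf and Fth1 depends on this choice and is not set either. For Slc40a1 the exon length was 9000 bases and the transcript had 3370, so its level and its overlap with Id1 also depend on this choice. Hamp2 has no set place in this order, since its mean of 931 ± 959.8 CPM per kb pooled females, which averaged 1051 CPM, and males, which averaged 35.0 CPM. Of the 75-base stretches of Ftl1 and Trf, 84.8% and 78.6% recur in other genes, so their levels may be counted too low beside Hamp (3.87%) and Fth1 (2.32%). In FLCN KO MCD livers the order at the top was turned, with Ftl1 at 2291 ± 364 and Hamp at 1421 ± 339 CPM per kb (SD, n = 6).

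Hamp (ENSMUSG00000050440, chr7:30942368-30944032, minus strand), which encodes hepcidin, was lower on MCD in both genotypes. In Cre chow livers it ran from 608 to 1281 CPM with a median of 940.5 CPM. The Cre MCD livers had 322, 865, 379, 421 and 995 CPM. Of these 5, 3 lay below every chow liver and the others lay among them. In FLCN KO chow livers Hamp was at 819, 1251, 704, 1008 and 842 CPM. FLCN KO MCD livers ran from 393 to 753 CPM with a median of 557 CPM, and 2 of these 6 lay inside the chow range. The fold was 1.59 in each genotype (log2 -0.67, SE 0.272, adjusted p = 0.04 in Cre, and -0.67, SE 0.269, adjusted p = 0.048 in FLCN KO). Exact two-sided permutation tests gave p = 0.0584 in Cre and 0.0130 in FLCN KO livers, where the smallest p possible is 0.00216.

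These Hamp calls rested on single livers. In Cre mice the call was lost without Cre chow 2, 3 or 4 or without Cre MCD 1, 3 or 4, with log2 fold changes of -0.51 to -0.65 and adjusted p of 0.063 to 0.12. In FLCN KO mice it was lost without FLCN KO chow 1, 2, 4 or 5 or FLCN KO MCD 1, 2, 4 or 6 (-0.53 to -0.71, adjusted p 0.053 to 0.14), and without Cre chow 1, 2, 3 or 5, which are not in this comparison but are in the same fit. Without the libraries holding reads of both sexes the values were -0.49 (adjusted p = 0.17) and -0.51 (adjusted p = 0.22). In females alone the change was -0.69 (adjusted p = 0.06) in Cre and -0.72 (adjusted p = 0.062) in FLCN KO livers, and in males alone it was called in Cre (-0.86, adjusted p = 0.048) and not in FLCN KO livers (-0.50, adjusted p = 0.27). The response to diet did not differ detectably between genotypes, at 0.00 with an SE of 0.381 (adjusted p = 1.0), an error that leaves room for a difference. Genotype made no difference to Hamp that these data could resolve, at -0.04 (SE 0.269) on chow and -0.03 (SE 0.269) on MCD.

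**Figure D2:**
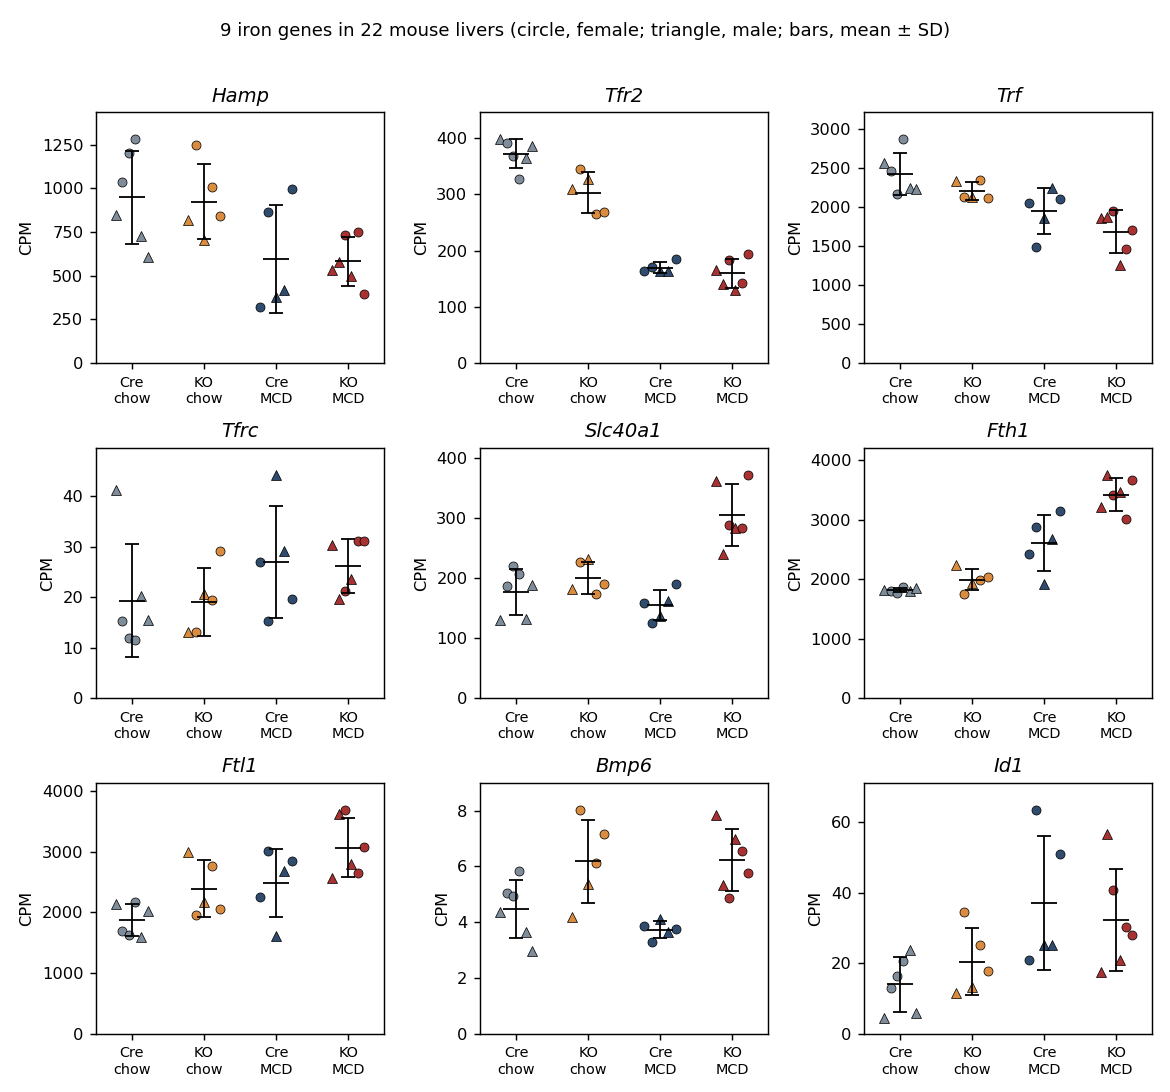
CPM of 9 iron genes in each of the 22 livers, with circles for female and triangles for male livers and bars for the group mean ± SD. Tfr2 on MCD sits between 130.1 and 194 CPM, below all chow livers, and Slc40a1 in FLCN KO MCD livers sits between 240.0 and 372 CPM, above all other livers.

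Hamp2 (ENSMUSG00000056978, chr7:30922372-30924681, minus strand), a rodent copy of the hepcidin gene whose role in iron control is less clear, varied with sex as well as with diet. In the 3 female Cre chow livers it was at 1098, 942 and 1112 CPM, and in the 3 males at 50.0, 45.9 and 9.0 CPM. On MCD the female Cre livers had 57.9, 18.2 and 32.7 CPM and the males 202 and 41.4 CPM. The female level on MCD thus lay within the range of the chow males or just above it. In FLCN KO chow livers the females had 107, 363 and 529 CPM and the males 14.2 and 7.52 CPM. FLCN KO MCD females had 176, 249.8 and 102 CPM and males 80.5, 93.1 and 83.6 CPM. The sexes did not overlap in 3 of the 4 groups, with females higher in Cre chow, FLCN KO chow and FLCN KO MCD.

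On chow, Hamp2 was lower in males by 4.91 on the log2 scale in Cre (a log2 difference of -4.91, adjusted p = 0.00016) and by a difference of -4.95 in FLCN KO livers (adjusted p = 0.0023). It was the only member called between the sexes in either group, where 6.62% and 2.62% of all genes were called. On MCD no member was called between the sexes, in Cre (1.14% of all genes) or FLCN KO livers (0.0569%). In female Cre livers Hamp2 fell by a log2 difference of -4.86 on MCD (SE 0.707, adjusted p = 1.8e-05), and in males it rose by 1.79 (SE 0.675, adjusted p = 0.04). Without the female livers that hold reads of both sexes the female change was -5.34 (SE 0.841, adjusted p = 3e-04). The male change rested on Cre MCD 3, the liver with the most muscle reads, and was 0.24 (SE 0.767, adjusted p = 0.83) without it, when the only male Cre MCD liver left was Cre MCD 4, which also held muscle reads. The difference between the sexes in the response to diet was 6.65 (SE 0.958, adjusted p = 0.00059; 3.19% of all genes called), and 5.10 (SE 0.904, adjusted p = 0.0076) without Cre MCD 3. In FLCN KO livers the females were at -0.92 (adjusted p = 0.24), the males rose by 2.99 (SE 0.791, adjusted p = 0.0081), and the difference was 3.91 (SE 0.986, adjusted p = 0.087; 0.676% of all genes called), which passed without Cre MCD 3 (3.91, SE 0.883, adjusted p = 0.044).

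**Figure D3:**
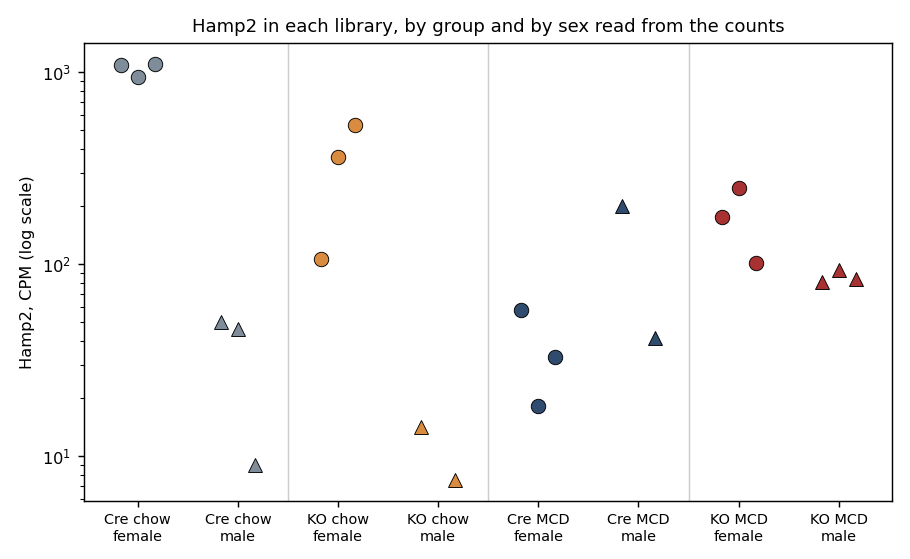
Hamp2 in CPM on a log axis for each liver, by group, with circles for female and triangles for male livers. Female Cre livers drop from 942 to 1112 CPM on chow to 18.2 to 57.9 CPM on MCD, while chow males of both genotypes lie at or below 50.0 CPM.

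Among females on MCD, Hamp2 was higher in FLCN KO than in Cre livers (log2 difference 2.28, SE 0.633, adjusted p = 0.024), with no overlap. Without the libraries holding reads of both sexes the value was 2.79 (SE 0.752, adjusted p = 0.069). On chow the genotypes differed the other way among females, by -1.66 (SE 0.615, adjusted p = 0.15), also with no overlap. Among males the difference was -1.70 on chow (adjusted p = 0.26) and -0.50 on MCD (adjusted p = 0.71), the latter 1.05 without Cre MCD 3. With both sexes in 1 group there was a fall of 7.72-fold on MCD in Cre livers (log2 -2.95, SE 1.11, adjusted p = 0.027; exact permutation p = 0.238), which was lost without Cre chow 2 or 4 or Cre MCD 1, 2, 4 or 5 (adjusted p 0.053 to 0.062) and without the libraries holding reads of both sexes (-2.56, adjusted p = 0.12). With sex as a covariate it was -1.33 (adjusted p = 0.32). The chow males also carried 24083 to 43946 CPM of major urinary protein (Mup) reads, against 2502 to 7157 CPM in chow females and at most 926 CPM on MCD, and they were the 5 chow libraries with a low share of uniquely mapped reads, so sex and that share cannot be told apart on chow.

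The hepcidin transcripts were identical at 389 of 410 aligned bases (94.9%). Of the 75-base stretches of Hamp, as long as 1 read, 3.87% occurred unchanged in Hamp2, so most reads could be assigned. Both genes overlap Gm44662 on the opposite strand, and how the counting treated strand is not given in the sources used here. In Cre chow 6, Hamp2 was at 9.0 CPM and Hamp at 608 CPM. Carry-over of reads between the pair was not tested.

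Bmp6 (ENSMUSG00000039004, chr13:38345107-38500302, plus strand), the BMP ligand that reports liver iron to hepatocytes, was higher in the knockout on MCD. It had 3.87, 3.28, 4.12, 3.64 and 3.74 CPM in Cre MCD livers and 4.87 to 7.83 CPM, median 6.16 CPM, in FLCN KO MCD livers. The groups did not overlap. The fold was 1.67 (log2 0.74, SE 0.174, adjusted p = 0.0056; exact permutation p = 0.00433), and the call held in all 35 alternative settings (0.66 to 0.81). It held in females (0.66, adjusted p = 0.024) and in males (0.79, adjusted p = 0.02) separately. On chow the difference was 0.47 (SE 0.174, adjusted p = 0.1), which passed without FLCN KO chow 1 (0.57, adjusted p = 0.042). The genotype effect did not differ detectably between diets (0.27, SE 0.246, adjusted p = 0.54). MCD itself left Bmp6 at -0.26 (adjusted p = 0.21) in Cre and 0.01 (adjusted p = 0.98) in FLCN KO livers, though the females alone fell in Cre by a log2 value of -0.54 (adjusted p = 0.021). The low counts, at most 165 reads in a library, limit these values. Bmp6 overlaps Txndc5 and 4930579J19Rik on the opposite strand and shares 4.26% of its 75-base stretches with Txndc5, so without the strand setting reads of these genes cannot be told apart where they overlap.

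Sinusoidal endothelial cells are the main source of Bmp6 in liver. Between genotypes on MCD, 1 of 10 markers of these cells (Stab2) was higher in FLCN KO livers and 1 (Stab1) lower. In this comparison 16.6% of all genes were called (8.06% upward and 8.53% downward). The summed marker level of these cells was 217 to 278 CPM in Cre MCD and 252 to 291 CPM in FLCN KO MCD livers. Their most abundant marker there was Stab2, and none was at 0 throughout a group. Whether this has a part in the Bmp6 difference was not tested. In whole liver, fewer cells of a type and less RNA per cell cannot be told apart, which holds for every gene here.

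Tfr2 (ENSMUSG00000029716, chr5:137569840-137587481, plus strand), the second transferrin receptor, which senses iron-loaded transferrin and raises hepcidin, gave the clearest response to diet. Cre chow livers ran from 328 to 398 CPM with a median of 377 CPM. Cre MCD livers had 164, 170.3, 163, 163 and 186 CPM. FLCN KO chow livers had 310.0, 346, 327, 265 and 268 CPM, and FLCN KO MCD livers ran from 130.1 to 194 CPM with a median of 155 CPM. Every MCD liver lay below every chow liver. The fall was 2.20-fold in Cre (log2 -1.14, SE 0.103, adjusted p = 1.1e-08) and 1.90-fold in FLCN KO livers (-0.92, SE 0.101, adjusted p = 2.8e-07), each with an exact permutation p of 0.00216, the smallest possible. Both calls held in all 35 alternative settings and in each sex. On chow, Tfr2 was at -0.30 (SE 0.101, adjusted p = 0.072; exact permutation p = 0.00649) in the knockout, which passed without FLCN KO chow 2 (-0.35, adjusted p = 0.046).

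Id1 (ENSMUSG00000042745, chr2:152736251-152737410, plus strand), a direct target of BMP and SMAD signalling often read as its reporter, moved the other way from Hamp. It ran from 4.35 to 23.8 CPM, median 14.7 CPM, in Cre chow and was at 21.0, 63.5, 25.2, 25.1 and 51.1 CPM in Cre MCD livers. Only the highest chow liver reached the MCD range. The rise was 2.65-fold (log2 1.40, SE 0.412, adjusted p = 0.0061; exact permutation p = 0.0152), and was called in females alone (1.44, adjusted p = 0.026) and not in males alone (1.13, adjusted p = 0.12). In FLCN KO livers it was 11.5, 34.6, 13.2, 25.1 and 17.9 CPM on chow and 17.5 to 56.6 CPM on MCD (0.65, SE 0.413, adjusted p = 0.21), and the responses did not differ detectably (-0.75, SE 0.578, adjusted p = 0.46).

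Of 16 receptors, co-receptors and modifiers of the BMP and SMAD arm that were tested, Tfr2 included, 7 fell and 3 rose on MCD in Cre livers (62.5% called, beside 57.5% of all genes), and 6 fell and 1 rose in FLCN KO livers (43.8% called, beside 45.0%). Tmprss6, a protease that restrains hepcidin by cleaving hemojuvelin, fell in both (-0.71, adjusted p = 7.7e-07, and -0.59, adjusted p = 1.2e-05). Hjv, the hemojuvelin co-receptor, was at 0.02 (adjusted p = 0.92) and 0.15 (adjusted p = 0.33), and Hfe at 0.15 (adjusted p = 0.13) and 0.05 (adjusted p = 0.65), neither passing the test. Of 8 ligands, Bmp7 and Inhba fell in both genotypes and 1 other rose in Cre livers, while Bmp2, the other endothelial ligand for hepcidin, was at -0.17 and -0.16 (adjusted p = 0.3 and 0.38). Smad1 and Smad4, which carry the signal, fell slightly in Cre livers (-0.37, adjusted p = 0.0019, and -0.19, adjusted p = 0.021).

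Of 10 target genes of this arm, Id1 rose and Hamp fell on MCD in Cre livers, and Id4 and Hamp fell in FLCN KO livers. That is 2 of 10 in each genotype, beside 57.5% and 45.0% of all genes. The feedback inhibitors Smad6 and Smad7 and the hepcidin activator Atoh8 were not called in any comparison. Between genotypes on MCD, Smad9 (log2 1.30, adjusted p = 0.0067) and Id2 (0.75, adjusted p = 0.0076) were higher in FLCN KO livers, as was Tmprss6 (0.27, adjusted p = 0.038). Of the receptors and modifiers, Acvrl1, an endothelial BMP receptor (-0.73, adjusted p = 0.026), and Fstl1, a secreted follistatin-like protein (-1.25, adjusted p = 0.0032), were lower. Fstl1 rose on MCD in Cre livers (1.67, adjusted p = 3.4e-05) and not in FLCN KO livers (-0.16, adjusted p = 0.68), a difference of -1.83 (adjusted p = 0.0071). Such differences in response were called for 12 iron genes, against 1 without the 5 libraries holding reads of both sexes. Of 8 stellate cell markers 5 were also lower in FLCN KO than in Cre livers on MCD (62.5% called, beside 16.6% of all genes), and their part in the value of Fstl1 was not tested. Smad9 ran from 7.22 to 16.9 CPM in Cre MCD and from 22.1 to 34.4 CPM in FLCN KO MCD livers, without overlap. On chow, Id4 alone among the targets was called, higher in FLCN KO livers (1.94, adjusted p = 0.0032), where it ran from 3.90 to 34.4 CPM.

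Of 10 genes tested in the interleukin 6 arm, 3 were called on MCD in Cre livers (beside 57.5% of all genes) and 4 in FLCN KO livers (beside 45.0%). Jak1, the kinase of this receptor (0.56, adjusted p = 1.1e-05, and 0.40, adjusted p = 0.0007) and 1 other rose and Cebpa, a factor that binds the Hamp promoter, fell on MCD (-0.87, adjusted p = 1.2e-06, and -0.43, adjusted p = 0.0031) in Cre and FLCN KO livers, and 1 more fell in FLCN KO livers. Stat3 was at -0.11 (adjusted p = 0.31) and 0.08 (adjusted p = 0.49), and Socs3 at 0.12 (adjusted p = 0.8) and 0.11 (adjusted p = 0.82). Il6 was too low to test, at no more than 0.134 CPM in any liver. Of 15 acute phase genes that STAT3 drives, 8 fell and 4 rose in Cre and 8 fell and 1 rose in FLCN KO livers on MCD (80.0% and 60.0% called, beside 57.5% and 45.0% of all genes). They went in opposite directions, since Fgb (fibrinogen) fell by log2 values of -1.09 and -1.10 (adjusted p = 3.3e-06 and 4e-06) while Apcs (serum amyloid P) rose by 2.67 and 3.56 (adjusted p = 2.1e-09 and 2.8e-10). Lcn2, which binds bacterial iron carriers, rose from 36.9 ± 44.3 CPM (SD, n = 6) to 559 ± 196 CPM (SD, n = 5) in Cre livers on MCD, and was lower in FLCN KO MCD livers at 89.5 ± 33.3 CPM (SD, n = 6; log2 -2.64, adjusted p = 0.0051). Neutrophils also hold Lcn2, and the summed level of 6 neutrophil markers averaged 6.25 CPM in Cre chow, 32.9 CPM in Cre MCD and 18.8 CPM in FLCN KO MCD livers. Of these markers 5 of 5 tested were higher on MCD in Cre livers, beside 57.5% of all genes. Between genotypes on MCD 1 of the 5 (Csf3r) was lower in FLCN KO livers, beside 16.6% of all genes. The part of neutrophils in the Lcn2 values was not tested.

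Trf (ENSMUSG00000032554, chr9:103204001-103230444, minus strand), transferrin, the iron carrier of plasma, fell moderately on MCD. It ran from 2173 to 2868 CPM in Cre chow and was at 2054, 1489, 1856, 2246 and 2102 CPM in Cre MCD livers. FLCN KO chow livers had 2333, 2127, 2131, 2343 and 2112 CPM and FLCN KO MCD livers 1254 to 1950.4 CPM, so that the diets did not overlap in the knockout. Its log2 change on MCD was -0.31 (SE 0.119, adjusted p = 0.028; exact permutation p = 0.0152) in Cre and -0.39 (SE 0.118, adjusted p = 0.01; exact permutation p = 0.00433) in FLCN KO livers. The Cre call was lost without Cre chow 4 or Cre MCD 2 or 3 (adjusted p 0.055 to 0.093) and without the libraries holding reads of both sexes (-0.33, adjusted p = 0.07), and neither sex alone passed in either genotype. Of its 75-base stretches, 78.6% also belong to Gm20425, a gene model over the same exons, so its counts are those of reads that the counting could place.

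Tfrc (ENSMUSG00000022797, chr16:32608920-32632794, plus strand), the transferrin receptor that brings iron into cells, did not pass the test in any comparison. Cre chow livers ran from 11.5 to 41.2 CPM with a median of 15.4 CPM, and Cre MCD livers had 27.0, 15.3, 44.3, 29.1 and 19.6 CPM. FLCN KO livers had 13.1, 13.1, 20.7, 19.4 and 29.2 CPM on chow and 19.6 to 31.2 CPM on MCD. The diets overlapped in both genotypes. The difference was 0.49 (SE 0.305, adjusted p = 0.17) in Cre and 0.45 (SE 0.307, adjusted p = 0.24) in FLCN KO livers. A single liver, Cre chow 1, held 41.2 CPM, and without it Tfrc rose in Cre livers on MCD (0.86, adjusted p = 0.0079). It also passed without the 5 chow males (1.06, adjusted p = 0.0081). That setting leaves only females on chow and both sexes on MCD, so sex and diet are mixed in it. Neither sex alone passed in Cre livers, at 0.67 (adjusted p = 0.11) in females and 0.52 (adjusted p = 0.27) in males.

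Slc40a1 (ENSMUSG00000025993, chr1:45908068-45926523, minus strand), ferroportin, the only known iron exporter of cells and the target of hepcidin, separated the genotypes on MCD. FLCN KO MCD livers had 362, 240.0, 289, 284, 283 and 372 CPM. Cre MCD livers had 158, 126, 137, 162 and 191 CPM. On chow it ran from 130.2 to 219.9 CPM in Cre and was at 182, 227, 231, 173 and 190.2 CPM in FLCN KO livers. Every FLCN KO MCD liver was above all 16 other livers. The genotypes differed 1.97-fold on MCD (log2 0.98, SE 0.151, adjusted p = 0.00014; exact permutation p = 0.00216, the smallest possible), in all 35 alternative settings (0.91 to 1.06), and in females (0.99, adjusted p = 0.0021) and males (0.98, adjusted p = 0.0069) alike. On chow the difference was 0.18 (SE 0.148, adjusted p = 0.51).

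Within FLCN KO livers Slc40a1 rose 1.52-fold on MCD (log2 0.60, SE 0.150, adjusted p = 0.0023; exact permutation p = 0.00433), whereas it was at -0.20 (SE 0.149, adjusted p = 0.27) in Cre livers. The rise was called in females alone (0.68, adjusted p = 0.0079) and not in males alone (0.52, adjusted p = 0.076). The difference between these responses was 0.80 (SE 0.211, adjusted p = 0.022). That call was lost without the 5 libraries holding reads of both sexes (0.81, adjusted p = 0.17) and in males alone (0.52, adjusted p = 0.46), and held in females alone (1.05, adjusted p = 0.023). Kupffer cells, the macrophages of the liver, also express ferroportin. Of 8 Kupffer cell markers, Timd4 and Cd163 were higher in FLCN KO than in Cre livers on MCD and none lower (25.0% called, beside 16.6% of all genes). Their summed level was 176 to 514 CPM in Cre MCD and 241 to 519 CPM in FLCN KO MCD livers. Their most abundant marker there was Cd5l, and none was at 0 throughout a group. Within FLCN KO livers 4 of the 8 (Folr2, Timd4, Clec4f and Adgre1) fell on MCD and none rose, beside 45.0% of all genes. Whether Kupffer cells have a part in the ferroportin difference was not tested.

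Of 19 genes of iron import, export and oxidation, the members included, 4 rose and 6 fell on MCD in Cre livers and 3 rose and 7 fell in FLCN KO livers (52.6% called in each, beside 57.5% and 45.0% of all genes). Cp, ceruloplasmin, the plasma ferroxidase that works with ferroportin, fell from 1839.6 ± 192 to 969 ± 192 CPM in Cre livers (SD, n = 6 and n = 5; log2 -0.92, adjusted p = 4.2e-06 by edgeR) and by -0.82 (adjusted p = 2.4e-05) in FLCN KO livers. Slc11a2, the ferrous iron importer DMT1, rose in Cre livers (0.48, adjusted p = 0.00082) and was at -0.03 (adjusted p = 0.86) in FLCN KO livers, a difference of -0.50 (adjusted p = 0.044). Slc39a14, the importer of iron not bound to transferrin, and Steap3, the endosomal ferrireductase, were not called. Steap4, a metalloreductase, was lower in FLCN KO than in Cre livers on MCD (-1.20, adjusted p = 0.00016), with 29.6 to 56.8 CPM against 61.4 to 128 CPM, and differed in its response to diet (-1.17, adjusted p = 0.0093). Responses differed like this for 12 iron genes, against 1 without the 5 libraries holding reads of both sexes. Timd2, a ferritin receptor, fell on MCD in Cre livers (-1.25, adjusted p = 1.9e-08) and FLCN KO livers (-0.88, adjusted p = 2.8e-06), and Lrp2, an endocytic receptor, fell in FLCN KO livers (-2.61, adjusted p = 0.012). Mcoln1, the lysosomal channel that releases iron and a known TFEB target, was higher in FLCN KO livers on chow (0.63, adjusted p = 2.4e-05) and on MCD (0.79, adjusted p = 1.6e-06). Meltf, melanotransferrin, was at most 0.122 CPM in Cre chow livers and ran from 0.797 to 3.07 CPM in Cre MCD and from 2.91 to 6.47 CPM in FLCN KO MCD livers. Between genotypes it was higher in FLCN KO livers on chow (2.92, SE 0.854, adjusted p = 0.035) and was not called on MCD (0.94, adjusted p = 0.069). The groups overlapped on chow and the Cre level there was very low, so the size of that difference is poorly set.

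Fth1 (ENSMUSG00000024661, chr19:9980598-9985098, plus strand), the ferritin heavy chain that oxidises iron for storage, rose on MCD in both genotypes. Cre chow livers lay close together, from 1777 to 1869.6 CPM. Cre MCD livers had 2431, 2882, 1924, 2672 and 3138 CPM. FLCN KO chow livers had 2233, 1751, 1933, 1993 and 2038 CPM, and FLCN KO MCD livers ran from 3010.1 to 3756 CPM with a median of 3437 CPM. No MCD liver overlapped the chow livers of its genotype. The rise was 1.43-fold in Cre (log2 0.52, SE 0.101, adjusted p = 0.00018) and 1.72-fold in FLCN KO livers (0.78, SE 0.103, adjusted p = 3.1e-06), each with an exact permutation p of 0.00216. It held in all 36 alternative settings in FLCN KO livers and in 35 of 36 in Cre livers, where the males alone gave 0.33 (adjusted p = 0.086). On MCD, Fth1 was higher in FLCN KO than in Cre livers (0.39, SE 0.102, adjusted p = 0.011), with 1 Cre liver inside the FLCN KO range, and this was lost in females alone (0.25, adjusted p = 0.24) and without the libraries holding reads of both sexes (0.37, adjusted p = 0.082).

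Ftl1 (ENSMUSG00000050708, chr7:45457944-45459884, minus strand), the ferritin light chain, had a similar but more scattered pattern. It ran from 1597 to 2176 CPM in Cre chow and was at 2260.2, 3016, 1616, 2692 and 2847 CPM in Cre MCD livers (0.41, SE 0.157, adjusted p = 0.031; exact permutation p = 0.0606). FLCN KO livers had 3003, 1951, 2170.3, 2773 and 2052 CPM on chow and 2576 to 3691 CPM on MCD (0.36, SE 0.158, adjusted p = 0.067). The Cre call was lost without Cre chow 2, 3 or 5 or Cre MCD 2, 4 or 5 (adjusted p 0.061 to 0.093) and without the libraries holding reads of both sexes (0.41, adjusted p = 0.069), and the FLCN KO difference passed without FLCN KO chow 1 (0.46, adjusted p = 0.029) or Cre MCD 3 (adjusted p = 0.035). The lowest Cre MCD values of both ferritin chains came from Cre MCD 3. Of the 75-base stretches of Ftl1, 84.8% recur in processed copies and overlapping genes, so reads that map to several places would be lost from its count, while 3 copy rows held 0.205% of the summed counts. For Fth1 2.32% recur. Of the other 7 storage and chaperone genes tested, Ncoa4, the receptor that delivers ferritin to lysosomes, was at -0.31 (adjusted p = 0.2) and -0.37 (adjusted p = 0.14), and Pcbp2, a chaperone that hands iron to ferritin, rose on MCD in FLCN KO livers (0.26, adjusted p = 0.0048) from a chow level below that of Cre livers (-0.29, adjusted p = 0.014), while on MCD the genotypes differed by 0.11 (adjusted p = 0.32).

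The genes of the iron regulatory proteins and of their regulator Fbxl5, 3 in all, fell on MCD in Cre livers, where 28.2% of all genes fell. Aco1 (IRP1) was at -0.71 (adjusted p = 1.8e-06), Ireb2 (IRP2) at -0.90 (adjusted p = 4.9e-06), and Fbxl5, which marks IRP2 for degradation when iron is plentiful, at -0.43 (adjusted p = 0.0024). Aco1 (-0.67, adjusted p = 5.6e-06) and Ireb2 (-0.51, adjusted p = 0.0023) also fell in FLCN KO livers. Fbxl5 was at -0.00 (adjusted p = 0.98) there, and was higher in FLCN KO than in Cre livers on MCD (0.39, adjusted p = 0.017).

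Of 15 genes of heme uptake, transport and breakdown, 7 rose and 4 fell on MCD in Cre livers (73.3% called, beside 57.5% of all genes), and 4 rose and 3 fell in FLCN KO livers (46.7%, beside 45.0%). Between genotypes 4 were higher and 1 lower in FLCN KO livers on chow (33.3%, beside 8.62%), and 2 were higher and 4 lower on MCD (40.0%, beside 16.6%). Flvcr2, a heme and choline transporter, had the largest rise on MCD in this list (2.09, adjusted p = 3.1e-08, in Cre and 1.73, adjusted p = 6.7e-07, in FLCN KO livers) and was higher in the knockout on chow (0.90, adjusted p = 0.0084). Hmox1, the heme oxygenase that frees iron from heme, was at 19.4 ± 3.42 CPM in Cre chow (SD, n = 6), 30.8 ± 1.51 in FLCN KO chow (n = 5), 59.9 ± 10.8 in Cre MCD (n = 5) and 44.3 ± 5.87 CPM in FLCN KO MCD livers (n = 6). It was higher in the knockout on chow (0.67, adjusted p = 0.0013) and lower on MCD (-0.44, adjusted p = 0.017), and its response to diet was smaller in FLCN KO livers (difference -1.10, adjusted p = 0.00091). Hpx, hemopexin, which binds free heme, was also higher in FLCN KO livers on chow (0.67, adjusted p = 0.0021). Blvrb, a biliverdin reductase, was lower in FLCN KO livers on chow (-0.69, adjusted p = 0.0025) and on MCD (-0.53, adjusted p = 0.0094), and Slc48a1, a heme transporter of lysosomes, was lower on MCD (-0.49, adjusted p = 0.0014). The summed level of 7 markers of erythroid cells and blood averaged 206 CPM in Cre chow, 277 in FLCN KO chow, 242 in Cre MCD and 184 CPM in FLCN KO MCD livers, and Alas2, its most abundant gene in Cre chow livers, is also in the heme synthesis list. Of 5 tested, 3 (Hba-a1, Hbb-bs and Hba-a2) rose on MCD in Cre livers, while Hbb-bt was higher in FLCN KO livers on chow and fell there on MCD, and none was called between genotypes on MCD. Of 7 markers of macrophages derived from monocytes, 4 were higher in FLCN KO than in Cre livers on chow and 2 were lower on MCD. For 6 of these 7 the response to diet was lower in FLCN KO livers, beside 8.83% of all genes called. The part of blood and macrophages in the values of the heme genes was not tested. Of 12 heme synthesis genes, 6 fell and none rose in Cre livers on MCD (50.0% called, beside 57.5% of all genes), led by the mitochondrial transporter Abcb10 (-1.79, adjusted p = 4e-08), and 4 fell and 1 rose in FLCN KO livers (41.7%, beside 45.0%). Of 23 genes of iron-sulfur cluster assembly, 7 rose and 5 fell in Cre livers (52.2% called, beside 57.5% of all genes) and 9 rose and 4 fell in FLCN KO livers (56.5%, beside 45.0%), led upward in FLCN KO livers by the chaperone Hspa9 (1.23, adjusted p = 2.6e-08). Cisd1, a mitochondrial iron-sulfur protein, fell less in FLCN KO (-0.36, adjusted p = 0.0033) than in Cre livers (-1.14, adjusted p = 2.7e-09), a difference of 0.79 (adjusted p = 0.0013). Differences in response, as for Hmox1 and Cisd1, went from 12 iron genes to 1 without the 5 libraries holding reads of both sexes.

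**Figure D4:**
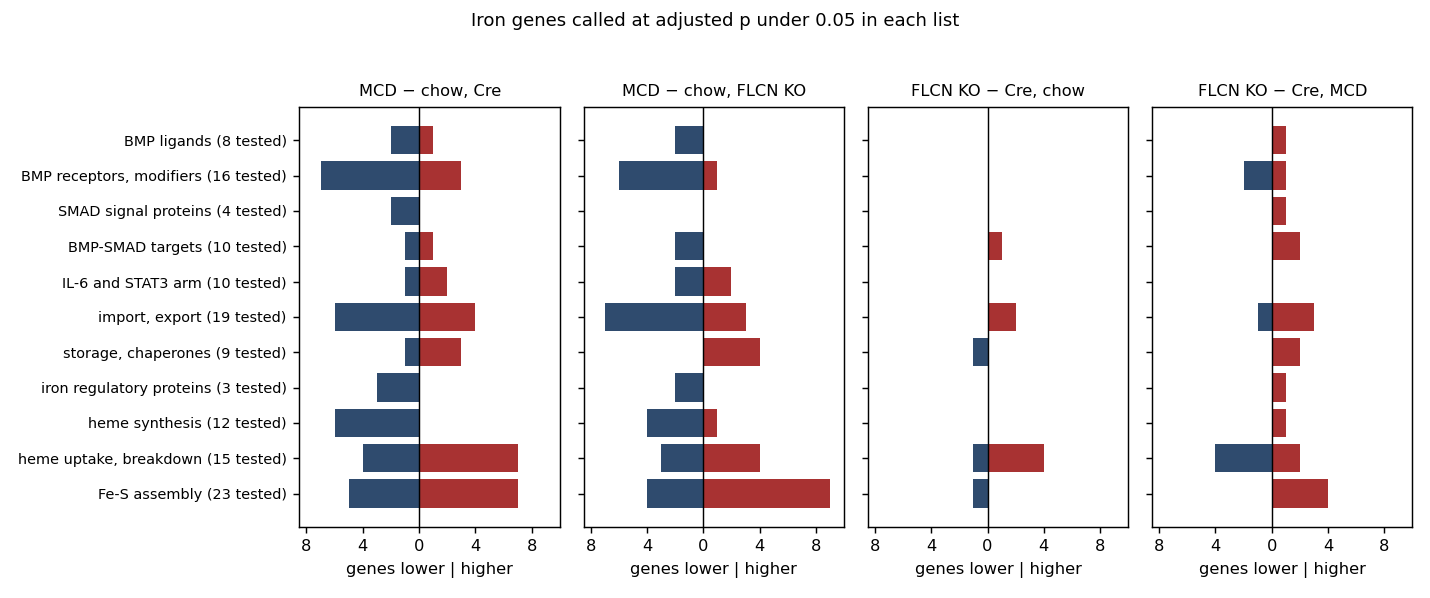
Number of genes called lower (left of 0) and higher (right of 0) at adjusted p under 0.05 (edgeR) in each list of iron genes for 4 comparisons. Heme synthesis genes are called in 6 of 12 cases in Cre livers on MCD, beside 57.5% of all genes, and on chow 5 of 15 genes of heme uptake and breakdown are called between genotypes, beside 8.62% of all genes.

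In all, 127 genes of these iron lists were tested beside the acute phase genes. On MCD 28 rose and 37 fell in Cre livers, and 24 rose and 31 fell in FLCN KO livers. Between genotypes 7 were higher and 3 lower in FLCN KO livers on chow, and 16 were higher and 7 lower on MCD. The shares called were 51.2%, 43.3%, 7.87% and 18.1%, beside the 57.5%, 45.0%, 8.62% and 16.6% of all genes.

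Members were also counted within each sex, beside the share of all genes called. In female livers 6 members were called between diets in Cre (50.2% of all genes), 3 in FLCN KO (38.1%), none between genotypes on chow (4.35%), 3 on MCD (13.0%), and 2 for the difference in response (7.16%), namely Slc40a1 and Hamp2. In male livers the members called were 3 (41.6% of all genes), 3 (28.7%), none (3.90%), 3 (9.86%) and none (1.38%). Tfr2 fell on MCD in both sexes of both genotypes, and Slc40a1 and Bmp6 were higher in FLCN KO livers on MCD in both sexes.

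Markers of the cell types of liver also differed between diets, in comparisons where 57.5% of all genes were called in Cre livers (29.3% upward and 28.2% downward) and 45.0% in FLCN KO livers (22.5% in each direction). Summed CPM of 8 hepatocyte markers, led by Alb, averaged 143203 ± 18205 in Cre chow, 117991 ± 19632 in FLCN KO chow, 99257 ± 15569.9 in Cre MCD and 78705 ± 8447 in FLCN KO MCD livers (SD, n = 6, 5, 5 and 6), and 5 of the 8 fell on MCD in Cre and 6 in FLCN KO livers. Hamp, Tfr2 and Trf, which hepatocytes make, fell on the same diet, and the part of the hepatocyte share in this was not tested. Markers of macrophages derived from monocytes averaged 65.1 CPM in Cre chow and 318 CPM in Cre MCD livers, with 7 of 7 higher on MCD, and 140.0 and 282 CPM in FLCN KO livers, with 4 of 7 higher. Stellate cell markers averaged 333 and 614 CPM in Cre livers, with 6 of 8 higher on MCD, and 381 and 421 CPM in FLCN KO livers, where 1 was higher and 1 lower. These cells also hold ferritin and heme oxygenase, and their part in the values of Fth1, Ftl1 and Hmox1 was not tested.

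Within groups, some members varied together from liver to liver. With group means removed, over the 22 libraries, log2 CPM of Hamp correlated with that of Id1 at Pearson r = 0.64 and with that of Tfrc at -0.54, and Fth1 with Ftl1 at 0.80. Hamp2 and Bmp6 were at 0.70. The points share libraries, sexes and depth, so these are descriptions. Of 12847 genes with a mean of at least 1 CPM, the gene most like Hamp was Atoh8 (r = 0.82), followed by Rasl11b, 2210417A02Rik, Slc38a7 and Slc3a2 (0.73 to 0.75). The genes most like Tfrc were Ufl1, Dnaja1, Txndc5, Xpo7 and Fam20c (0.81 to 0.83). Those most like Id1 were Smad7 (0.81), A530041M06Rik, Spata22, Trp53rkb and Spire1.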

How the data were processed

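RNA was measured in 22 mouse livers. The authors made libraries with an mRNA kit and adapters holding molecular identifiers, sequenced single-end reads of 75 bases, trimmed them with Trimmomatic, aligned them with STAR to GRCm38 and counted genes with HTSeq. The deposited values are these raw counts per gene. Tool versions, the annotation release, the strand setting and whether identifiers were collapsed are not given in the sources used here. The count table held 0 columns without a sample.

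The 14062 of 55573 genes whose mean count reached 10 were tested with edgeR 4.0.16 (R 4.3.3, TMM factors, quasi-likelihood test, 4 groups in 1 fit, Benjamini-Hochberg adjustment over all genes tested, threshold 0.05). The study's methods used limma, and limma-voom (3.58.1) and DESeq2 (1.42.0) were alternatives. Values of log2 CPM used a prior count of 2. Exact two-sided permutation tests enumerated 462 splits of 6 against 5 livers. Fits by sex used 8 groups, with sex read from Xist, Ddx3y, Eif2s3y, Kdm5d and Uty, and a library was taken as holding both sexes where Xist was present and Y-linked reads passed 5% of the male median. Alternatives changed the scaling, the filter, the samples fitted, the covariates or left out libraries. The scripts were tested on simulated data.

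The members and lists were chosen with earlier results of these data known. The 10 members were named throughout. Other iron genes could be named where they were called, as the 4 largest changes in each direction and up to 2 more in each list by adjusted p, or where they define the pathway, and not all that could be named were. Markers of other cell types were summed from fixed lists. All 50 pairs of libraries within groups differed (Spearman 0.909 to 0.926, 0 identical). Separate mice are taken from the labels. Depth gives counting error only, and 3 counts was the floor for a gene at 0. Gene positions are from GENCODE M21 and promoters from RefSeq, where 7 of the 10 members matched.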

Additional observations from a re-analysis of the deposited data

Results flagged for a closer look

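In 40 checks of a member within a group, 2 livers lay far from the rest, and chance alone gives about 1 in 20. Hamp2 in Cre MCD 3 was at 202 CPM, where the other Cre MCD livers were at 18.2 to 57.9 CPM. This liver is male and also held 3151 CPM of skeletal muscle markers, and their part in the value was not tested. Tfrc in Cre chow 1 was at 41.2 CPM, where the other Cre chow livers were at 11.5 to 20.2 CPM.

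Effects differed between groups in 2 cases. The response of Slc40a1 to MCD was higher in FLCN KO than in Cre livers by 0.80 on the log2 scale (SE 0.211, adjusted p = 0.022 by edgeR), where all 6 FLCN KO MCD livers exceeded all chow livers. As given above, this call was lost without the libraries holding reads of both sexes and in males alone, and below with the replicate block. The response of Hamp2 to MCD in Cre mice was higher in males than in females by 6.65 on the log2 scale (SE 0.958, adjusted p = 0.00059 by edgeR). All 3 female Cre MCD livers were below all 3 female chow livers, and 1 of 2 male Cre MCD livers was above all 3 male chow livers.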

How the results depend on the processing

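Of 1760 values of single members under the alternatives, 1675 kept their direction and their side of the threshold, 71 lost their call, 12 gained one and 2 reversed. The 2 that reversed were Hamp2 in males, at 1.79 in Cre and 2.99 in FLCN KO livers on MCD, and the first of these rests on Cre MCD 3. Of 522 counts, 484 stayed within 1.5 times the reported one. DESeq2 called 1 member between genotypes on chow. Without a filter on low counts, 7 iron genes (reported as 12) differed in response to diet between genotypes, and Hamp (adjusted p = 0.059 in Cre and 0.067 in FLCN KO) and Trf in Cre (0.091) were lost. With only the groups compared in the fit, 4 members were called between diets in Cre livers, with Hamp (adjusted p = 0.091), Trf (0.051) and Ftl1 (0.052) lost, and Fth1 between genotypes on MCD was lost (0.053). Upper-quartile factors lost Hamp in both genotypes (0.061 and 0.053) and Trf in Cre (0.077), and summing the hepcidin pair lost Hamp in FLCN KO (0.12). By limma-voom, Hamp2 in Cre was at -1.76 (0.21). The cause was not tested.

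Livers of different groups share only a replicate number, since the correlation of same-numbered livers ran from -0.551 to 0.47 between genotypes on chow, from 0.0621 to 0.262 on MCD, and from -0.187 to 0.21 and -0.136 to -0.0146 between diets in FLCN KO and Cre livers, and in none of these did every pair pass 0.1. With the replicate block, Hamp2 in Cre (adjusted p = 0.075), Hamp in FLCN KO (0.08) and the interaction of Slc40a1 (0.71, 0.091) were lost, and the genes differing in response were 0 members, 7 iron genes and 552 genes in all, against 1, 12 and 1242.

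Without the 5 chow males, 6 iron genes and 494 genes were called between genotypes on chow and 779 for the difference in response. Between diets in Cre livers, Tfrc, Slc40a1 (-0.40, 0.033) and Bmp6 (-0.50, 0.015) were then called, and Trf (0.062) and Ftl1 (0.069) were lost. The chow livers left were all female and the MCD livers of both sexes, so sex and diet are mixed in these diet calls. In Cre females alone Tfrc (0.67, 0.11) and Slc40a1 (-0.37, 0.11) were not called, and Bmp6 was (-0.54, 0.021). Without the 5 libraries holding reads of both sexes, 3 members were called between diets in Cre, 4 iron genes and 463 genes between genotypes on chow, 14 and 1194 on MCD, and 0 members, 1 iron gene and 84 genes for the difference in response. These alternatives hold fewer livers. In females alone, 3 members were called between diets in FLCN KO livers, 611 genes between genotypes on chow and 2 members for the difference in response. In males alone, 3 members were called between diets in each genotype, 4042 genes in FLCN KO, 5 iron genes and 549 genes between genotypes on chow, 1387 genes on MCD, and 0 members, 1 iron gene and 194 genes for the difference in response. Leaving out each liver in turn gave 4 to 8 members between diets in Cre, 0 to 1 member and 669 to 1428 genes between genotypes on chow (669 without FLCN KO chow 4), and 813 to 1422 genes for the difference in response (813 without FLCN KO chow 4 and 817 without Cre MCD 1).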
